A study of Mus musculus with 12 samples.

Results

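Birc5, Aurka, Aurkb, Aurkc, Incenp, Cdca8 and Plk1 were followed through meiotic maturation of mouse oocytes that carry or lack Alkbh5, an enzyme that removes the N6-methyladenosine mark from RNA. These genes encode the members and catalytic subunits of the chromosomal passenger complex, the related Aurora A kinase and the polo-like kinase PLK1. They were chosen by name, and each matched a single row of the deposited table, giving 7 of 56691 genes. The 12 libraries comprised 2 genotypes and 3 stages with 2 replicates each. Wild-type (WT) C57BL/6 oocytes were compared with Alkbh5-/- (KO) oocytes, a total knockout made by CRISPR ablation of exon 1, so the ovary around the KO oocytes lacked Alkbh5 as well. The stages were the germinal vesicle (GV) stage, in which meiosis is paused in prophase, germinal vesicle breakdown (GVBD), and metaphase II (MII), at which the egg awaits fertilisation. Every library was a pool of oocytes from PMSG-primed females of about 3 weeks, with ERCC spike-in RNA added before a SMART-seq-type poly(A)-primed cDNA synthesis. GV pools were taken at the start of culture, and GVBD and MII pools after culture in vitro. Oocytes were taken by time in culture. The paper found that most KO oocytes in culture stayed at GV and few released a polar body, while most WT oocytes released one. A KO pool labelled GVBD or MII may therefore hold oocytes that had not reached that stage, possibly many of them. Genotype and stage cannot be told apart there. Nothing in the labels ties the replicates to separate females, so p-values measure the spread between these pools.

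The chromosomal passenger complex joins an Aurora kinase to INCENP, which activates it, and to survivin (the product of Birc5) and borealin (the product of Cdca8), which bring the complex to the inner centromere. There the kinase releases wrongly attached microtubules, and after anaphase onset it moves to the spindle midzone. Aurora B is the usual kinase of the complex in somatic cells, and germ cells also make the close relative Aurora C. Aurora A works at spindle poles with TPX2, and PLK1 acts at poles, kinetochores and in the activation of cyclin B1 with CDK1. Fully grown oocytes hardly transcribe, so mRNA levels after GV reflect storage, decay and tail length of stored transcripts, and poly(A)-primed libraries cannot tell apart a change in tail length and a change in amount.

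Stored oocyte mRNAs are controlled largely through their 3′ ends. The end of the annotated transcript with the longest coding sequence (GENCODE M21, GRCm38) was examined for each gene. The 5 sequences shown are the 30 bases that end with the polyadenylation hexamer, printed as mRNA sense strand. Capitals mark the hexamer (AATAAA or ATTAAA, searched in the last 50 bases of the sense strand) and, where present, the cytoplasmic polyadenylation element (CPE, searched as TTTTAT or TTTTAAT within the 100 bases before the hexamer).
Birc5, chr11:117855686-117855715 (+): agttttcctaccacggggtaacggAATAAA
Aurkb, chr11:69051610-69051639 (+): aaattatgaagaacaacaTTTTATAATAAA
Aurkc, chr7:7003042-7003071 (+): tttctcTTTTATgaagtgatgttaATTAAA
Cdca8, chr4:124919125-124919154 (-): acacctccacacacacacaataaaAATAAA
Plk1, chr7:122169831-122169860 (+): tgctctttccttagctttatatatATTAAA
Aurkb and Aurkc held a TTTTAT element, which lay 0 bases before the hexamer in Aurkb and 12 bases before it in Aurkc. Birc5, Cdca8 and Plk1 held neither CPE spelling in the window searched. Neither hexamer was found in the last 50 bases of the Aurka and Incenp transcripts. Over 20983 protein-coding genes, 73.4% had a hexamer by this search, and 17.5% of those also had a CPE. The letters GGACT, a common form of the N6-methyladenosine consensus, occurred within 100 bases of the stop codon on the sense strand once each in Incenp and Plk1 and not in the other 5 genes, against 22.7% of 19452 such windows. The window of Cdca8 was cut short by the transcript end, 92 bases after its stop codon. Windows cut short in this way were not among the 19452. Over the whole transcript every gene held GGACT, from 1 in Cdca8 to 8 in Incenp, with 2 in Birc5. These are matches of letters, and other annotated ends of the same genes were not searched.

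Libraries held 28557742 to 40247810 counts, of which 221927 to 838409 came from ERCC RNA. Values called spike-in scaled counts were divided by the library's ERCC total relative to the mean of all libraries, so that a fall in the mRNA content of a pool stays visible. Alkbh5 itself had 5355 to 10181 counts in WT and 54 to 143 in KO libraries, in accord with the labels in all 12. Summed counts of 11 oocyte markers came to 18350 to 35194 CPM. In WT, Zp1, Zp2, Zp3 and Figla were called lower and Oosp1 higher from GV to MII, beside 30.9% of all genes called. With TMM scaling Gdf9 and Bmp15 were also called higher there, beside 24.7% of all genes called. None of the 11 was called between genotypes at any stage. Those of 11 markers of granulosa and cumulus cells came to 38.9 to 85.6 CPM. Their sum was 43.3 to 49.2 CPM in WT MII and 55.1 to 85.6 CPM in KO MII, with Foxl2 and Amh at 0 counts in both groups. The largest part of each sum at MII was Cyp19a1, with raw counts of 1365 and 1267 (WT pools) against 1267 and 2225 (KO pools). The value of 85.6 thus rested largely on this gene in KO MII replicate 2. Nr5a2 was higher in the KO pools (428 and 336 against 313 and 292), while Star was lower (9 and 7 against 15 and 20). The sum therefore does not show a rise of these markers as a set. Fshr, the FSH receptor gene, was called higher in KO at GVBD, with 221 and 157 counts against 17 and 32, and Inha, Inhba and Star were called lower in WT MII than in WT GV. With TMM scaling the calls of Fshr, Inhba and Zp1 were lost. The part of these cells in the results was not tested, and a smaller number of cells and less RNA per cell cannot be told apart.

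Birc5, the survivin gene (chr11:117849251-117855743, + strand), was abundant. With spike-in scaling it showed the largest log2 difference between genotypes among these genes, at MII, while with TMM scaling that of Aurka was larger in size. The WT pools gave 28848 and 20108 counts at the GV stage, 22886 and 24373 after breakdown, and 13624 and 17500 at metaphase II. The KO pools gave 18154 and 22802 at the GV stage, 22596 and 23177 after breakdown, and 27689 and 27291 at metaphase II. After spike-in scaling, the 2 WT MII libraries had 10866 and 8434 and lay below all 10 other libraries, which ranged from 19548 to 37156. The 2 KO MII libraries, at 27711 and 19548, overlapped with WT GVBD.

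**Figure D1:**
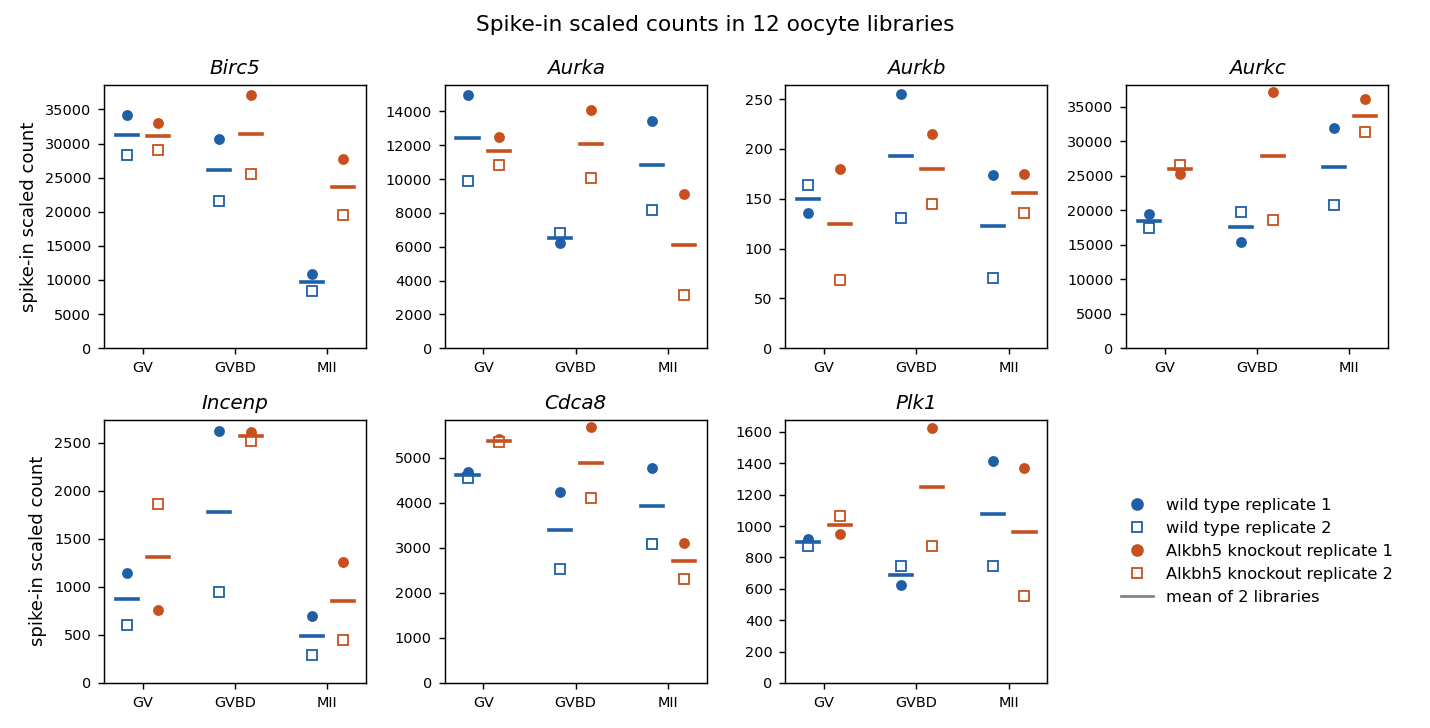
Spike-in scaled counts (vertical axis, from 0) of the 7 genes in the 12 libraries, by stage (horizontal axis), with WT in blue and KO in orange; filled circles are replicate 1, open squares replicate 2 and bars the mean of 2 libraries. Birc5 stands lowest in the 2 WT MII libraries at 10866 and 8434, while the KO MII libraries have 27711 and 19548.

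Ordered by mean spike-in scaled count, Birc5 was highest in KO GVBD at 31344 ± 8219 (SD, n = 2), followed by WT GV at 31292 ± 4152, KO GV at 31071 ± 2802, WT GVBD at 26137 ± 6440 and KO MII at 23629 ± 5772. Each of these 5 groups overlapped with the next. WT MII, at 9650 ± 1720, was the only group separated from its neighbour. The median gene fell by 1.06 on the log2 scale from WT GV to WT MII. How many genes have both WT MII libraries below all others was not counted.

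The question of the stage comparison is which maternal transcripts are lost or kept as the oocyte matures. A gene was called where edgeR's quasi-likelihood test gave a Benjamini-Hochberg adjusted p under 0.05 over all tested genes and the log2 fold change was at least 1 in size. From GV to MII in WT, 30.9% of all tested genes were called, 74 higher and 5747 lower, and the median gene fell by 1.06 on the log2 scale. Against this background 1 of the 7 genes was called. Birc5 fell by 1.70 on the log2 scale (SE 0.46, adjusted p = 0.00124), or −0.63 relative to the median gene. With TMM scaling, which centres the bulk of genes instead of the spike-ins, the Birc5 value was −0.75 with an adjusted p of 0.0564 and was not called. The call also rested on both WT GV libraries, since without replicate 1 the value was −1.56 (adjusted p = 0.307) and without replicate 2 it was −1.83 (adjusted p = 0.2).

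In KO, 3.28% of genes were called from GV to MII and the median gene fell by 1.17. This share moved widely, to 17.1% with all 12 libraries in one model, 16.3% with DESeq2, 54.2% and 16.9% without KO MII replicate 1 or 2, and 0.196% and 0.270% without KO GV replicate 1 or 2. The share in WT was 14.4%, 14.3% and 14.3% without WT GV replicate 1, WT GV replicate 2 or WT MII replicate 2. In the main test none of the 7 was called in KO, and Birc5 had a log2 fold change of −0.40 (SE 0.48, adjusted p = 0.648), which lies 0.78 above the median gene. Between GVBD and MII in WT, 27.8% of genes were called and Birc5 had −1.44 (SE 0.61, adjusted p = 0.0632), which was not called. It was called there with DESeq2 (adjusted p = 0.0111), with all 12 libraries in one model (0.0216) and with the replicate block (0.00264). Across the same step in KO, with 7.20% of genes called, it had −0.41 (SE 0.62, adjusted p = 0.837). Between GV and GVBD its values were −0.26 in WT and 0.01 in KO, with 0.0511% and 0.220% of genes called. At both of these stages its libraries overlapped between genotypes.

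The comparison between genotypes asks which transcripts differ when Alkbh5 is missing. At GV, with 0.0977% of genes called, the Birc5 difference (KO against WT) was −0.01 on the log2 scale (SE 0.17, adjusted p = 0.985). At GVBD, with 2.54% called, it was 0.26 (SE 0.50, adjusted p = 0.871). At MII, with 0.803% called, it was 1.29 (SE 0.69, adjusted p = 0.743). The MII libraries of the genotypes did not overlap, as was so for 30.7% of 13273 genes with a mean count of at least 50, and the difference failed the adjusted test, and its unadjusted p in edgeR's quasi-likelihood test was 0.0601. Over all the alternatives run it lay between 1.02 and 1.52 with adjusted p of at least 0.125.

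The difference between genotypes in the GV to MII change was tested directly by an interaction term. For Birc5 it was 1.30 on the log2 scale (SE 0.57), positive meaning a smaller fall in KO, with an adjusted p of 0.817 and an unadjusted p of 0.0409 in edgeR's quasi-likelihood test. No gene of 20807 passed this test (0% called), while 1197 had an unadjusted p under 0.05. The number of genes called depended on the settings. It was 0 with the replicate block, 71 with TMM scaling (0.341%) and 119 with median-of-ratios scaling (0.572%). DESeq2 gave 150 (0.721%), and a fit without the filter on low counts gave 346 (1.11%). The oocyte marker Zp2 was called with TMM scaling, with a positive value. Birc5 was called under none of the alternatives. In the fit of genotype over all stages, with 1.26% of genes called, Birc5 had 0.51 (SE 0.26, adjusted p = 0.304).

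**Figure D2:**
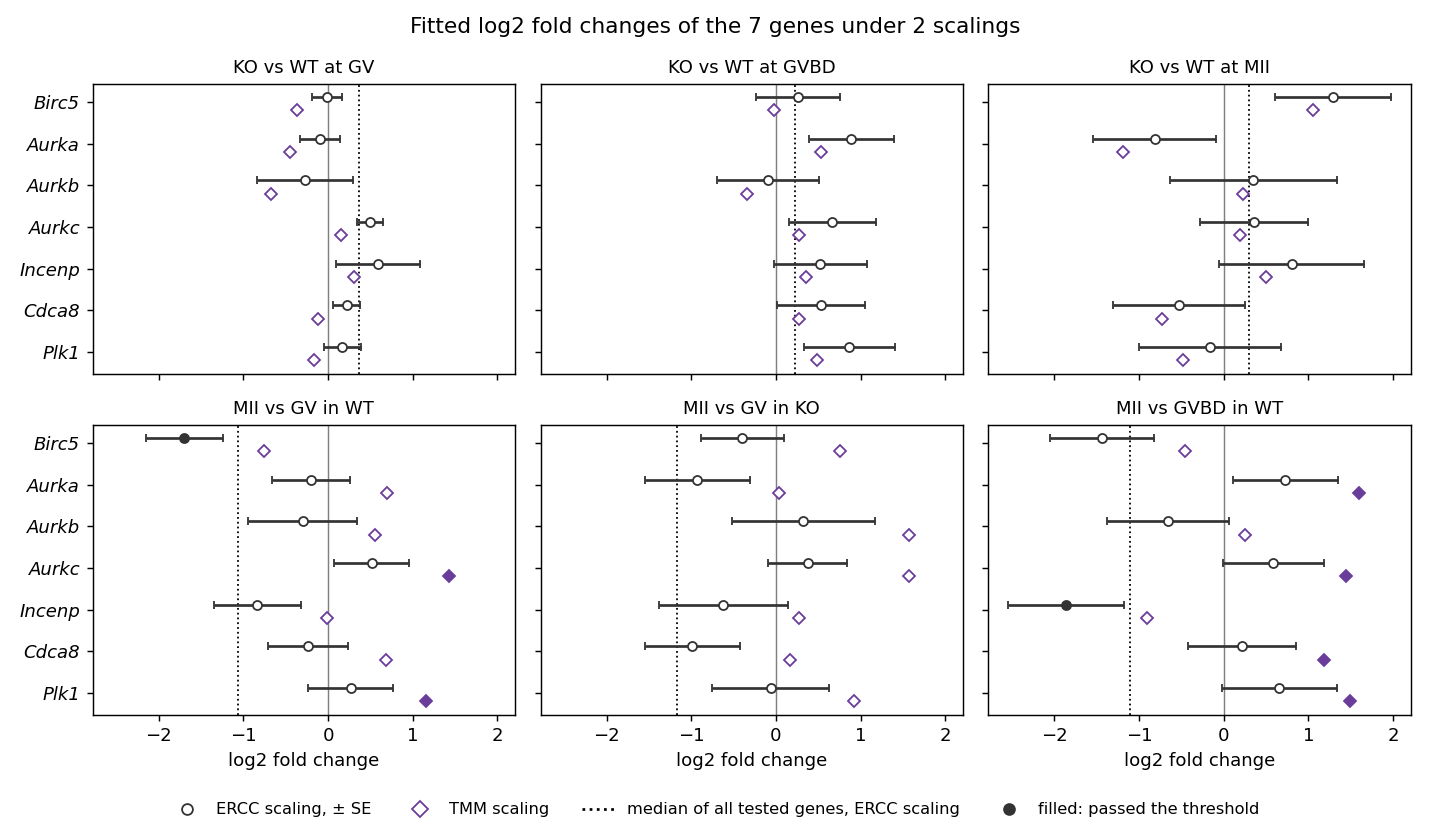
Fitted log2 fold changes (horizontal axis) of the 7 genes in 6 comparisons. Circles with bars are ERCC-scaled estimates ± SE, diamonds are TMM-scaled estimates, filled symbols passed the threshold, and the dotted line is the median of all tested genes with ERCC scaling. In MII against GV in WT, Birc5 lies left of the dotted median at −1.06 and Aurkc and Plk1 lie right of it.

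Ratios between genes of the same library do not depend on how libraries are scaled, and they are given here as a description. The log2 ratio of Birc5 to Cdca8, per kilobase of merged exon, was 3.47 and 3.25 in the WT pools at the GV stage, 3.46 and 3.70 after breakdown, and 1.79 and 2.06 at metaphase II. The KO pools gave 3.22 and 3.05 at the GV stage, 3.32 and 3.24 after breakdown, and 3.76 and 3.69 at metaphase II. The KO libraries lay slightly below WT at the first 2 stages, and at MII they lay above WT by 1.80 on average. The products, survivin and borealin, sit side by side in the complex, and the 2 WT MII libraries had the lowest ratios of all 12.

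Birc5 relative to Aurka moved the same way, with log2 ratios of −0.74 and −0.38 in the WT MII pools against 1.18 and 2.20 in the KO MII pools. The ratio to Aurkc was −2.71 and −2.46 against −1.54 and −1.84. Relative to Plk1 the mean KO minus WT difference at MII was 1.51, again without overlap. Relative to Incenp it was 0.53, and the libraries overlapped. All these ratios share the Birc5 count, so they are not separate results. Ratios without Birc5 also lay apart at MII, with KO higher by 1.27 for Incenp/Cdca8, 1.35 for Aurkc/Aurka and 0.90 for Aurkc/Cdca8. Aurka/Plk1 was lower in KO by 0.73, and Aurkc/Aurkb and Aurka/Cdca8 overlapped. Cdca8 and Aurka themselves had KO minus WT values of −0.53 and −0.82, not called. How often such ratios lie apart over all genes was not counted.

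**Figure D3:**
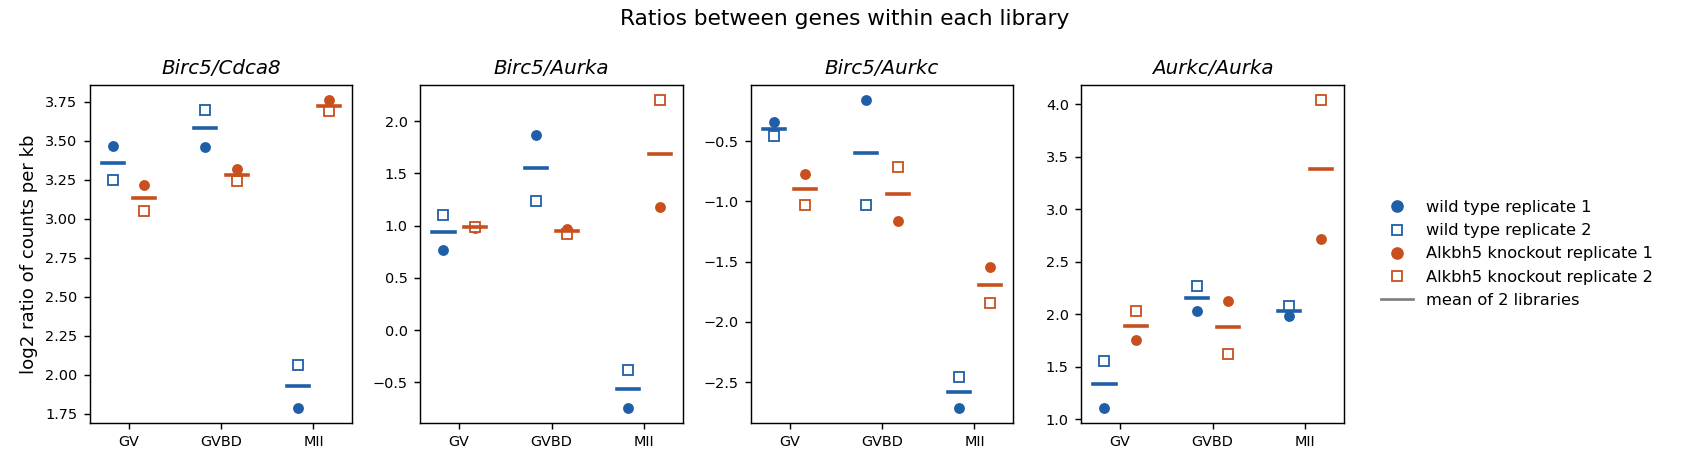
Log2 ratios of counts per kilobase between 2 genes of the same library (vertical axes, with a separate range for each panel) by stage, with WT in blue and KO in orange and bars for the mean of 2 libraries. Birc5/Cdca8 is 1.79 and 2.06 in WT MII and at least 3.05 in the 10 other libraries, and Aurkc/Aurka is highest in KO MII.

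The genes whose pattern was most like that of Birc5 were found by Pearson's r of log2 TMM-scaled counts over the 12 libraries, among 13273 genes whose mean count was 50 or more. They were Sec61g (r = 0.953), Rps29 (0.943), Tmsb10 (0.939), Pomp (0.935) and Phpt1 (0.935). Sec61g, for example, had 32550 and 38953 counts in the WT MII pools and 65346 and 68267 in the KO MII pools. These points share libraries and depth, and r is given as a description. The annotated transcripts of these genes measured 754, 390, 433, 1579 and 937 bases, and that of Birc5 measured 947 bases.

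Transcript length moved with the change at MII over all genes. Among protein-coding genes above the same minimum, the median TMM-scaled log2 difference from WT GV to WT MII was −1.37 for the 788 with transcripts of up to 1 kb and 0.32 for the 3367 over 4 kb. In KO the same medians were −0.53 and 0.30. Between genotypes at MII, the median difference was 0.42 for transcripts of up to 1 kb and 0.03 for those over 4 kb. Birc5, at 1.16 on this scale, lay at percentile 73.1 of the shortest class and at percentile 94.4 of the longest. The part of transcript length in the Birc5 difference was not tested.

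**Figure D4:**
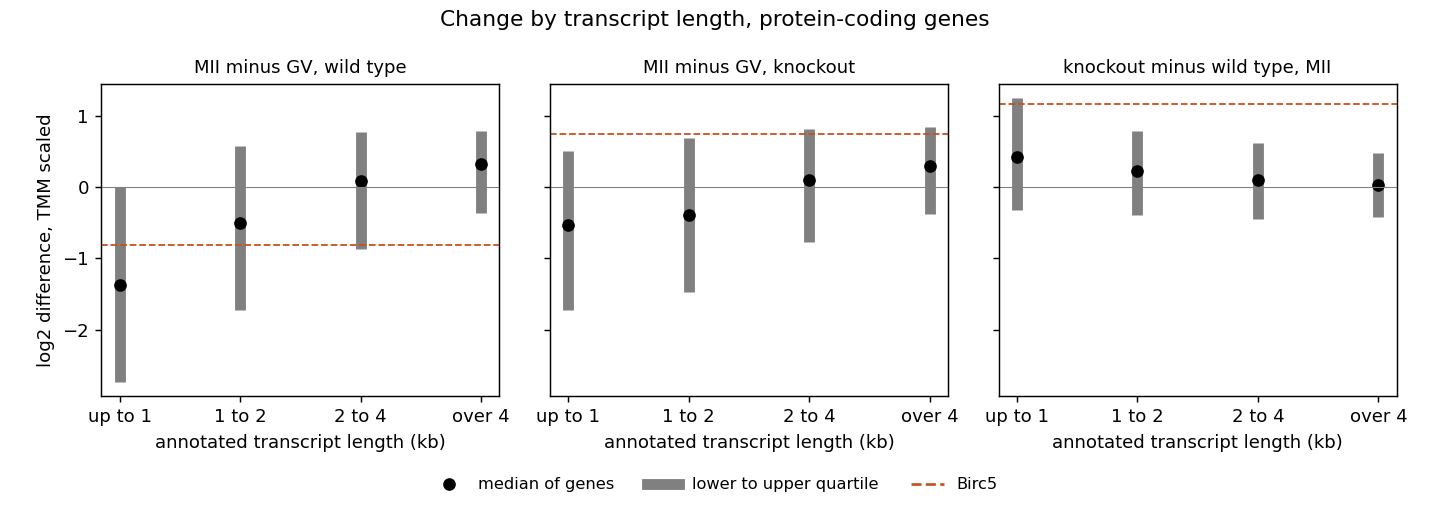
TMM-scaled log2 differences (vertical axis) of protein-coding genes by annotated transcript length (horizontal axis, kb), for 3 comparisons; points are medians, grey bars run from the lower to the upper quartile and the dashed line is Birc5. In WT the median of the shortest class is −1.37 from GV to MII, against −0.53 in KO.

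Among the catalytic subunits, Aurkc (chr7:6995300-7003091, + strand), which encodes the germ cell kinase Aurora C, was the dominant Aurora transcript in every library. The WT pools gave 16347 and 12353 counts at the GV stage, 11453 and 22331 after breakdown, and 39981 and 43091 at metaphase II. The KO pools gave 13874 and 20865, then 22554 and 16920, then 36043 and 43699. Raw counts were thus highest at MII in both genotypes. Spike-in scaled counts moved less, with log2 fold changes from GV to MII of 0.52 in WT (SE 0.44, adjusted p = 0.426) and 0.38 in KO (SE 0.47, adjusted p = 0.654), while the median gene fell. With TMM scaling 24.7% of all genes were called in WT and 5.06% in KO. The WT value of Aurkc was then 1.43 and was called (adjusted p = 0.00586), and the KO value was 1.57 and was not (adjusted p = 0.0697).

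Between genotypes at GV, spike-in scaled Aurkc was 17420 and 19396 in WT and 25260 and 26619 in KO. These libraries did not overlap, as was so at GV for 58.2% of 13273 genes with a mean count of at least 50. The log2 difference was 0.49 (SE 0.16, adjusted p = 0.204), against a median gene at 0.36. At MII the difference was 0.36 (SE 0.64, adjusted p = 1), and over all stages it was 0.51 (SE 0.22, adjusted p = 0.244). With TMM scaling the GV difference was 0.16 (adjusted p = 0.781).

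Aurkb (chr11:69045647-69051664, + strand), which encodes the mitotic kinase of the complex, was scarce, with 54 to 218 counts in all libraries. In stage order, its WT counts were 115 and 116, then 190 and 148, then 218 and 147, and its KO counts were 99 and 54, then 131 and 132, then 175 and 190. Spike-in scaled values overlapped between all neighbouring groups. The GV to MII log2 fold changes were −0.30 in WT and 0.32 in KO, and the difference at MII was 0.35 (SE 0.98). Standard errors of 0.64 to 0.98 in these comparisons leave changes of a few fold unresolved.

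Aurka (chr2:172356190-172370535, − strand), which encodes the spindle pole kinase Aurora A, differed in its course between the genotypes without passing a test. In stage order, WT counts were 12626 and 6992, then 4659 and 7679, then 16880 and 16917. KO counts were 6850 and 8515, then 8575 and 9119, then 9086 and 4422. After spike-in scaling WT was lowest at GVBD, at 6248 and 6800, where both KO libraries were higher, at 14100 and 10046. The libraries of the genotypes were apart at GVBD for 48.2% of 13273 genes with a mean count of at least 50. At MII the order was turned, with 13463 and 8153 in WT and 9093 and 3167 in KO, and the libraries overlapped. The log2 differences between genotypes were 0.89 at GVBD (SE 0.50, adjusted p = 0.432) and −0.82 at MII (SE 0.73, adjusted p = 1). TMM-scaled counts at MII were 16027 and 16173 in WT and 8835 and 6415 in KO. With that scaling edgeR's quasi-likelihood test gave −1.19 for Aurka (adjusted p = 0.115) and 1.05 for Birc5 (adjusted p = 0.161). Aurka had −0.20 in WT (adjusted p = 0.809) and −0.93 in KO (adjusted p = 0.377) from GV to MII, and the interaction was −0.73 (adjusted p = 1). Without KO MII replicate 1 the KO value was −1.88 (adjusted p = 1.45e-05), but in that fit 54.2% of all genes were called and the median gene was at −2.09, so Aurka was above the median gene.

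Per kilobase of merged exon, Aurora C mRNA made up 68.1% and 74.3% of the summed Aurora level in the WT pools at the GV stage, 79.8% and 82.6% after breakdown, and 79.6% and 80.8% at metaphase II. In stage order the KO shares were 76.9% and 80.2%, then 75.3% and 81.2%, then 86.6% and 94.1%. Aurora A mRNA took 19.1% to 20.2% in WT MII and 5.73% to 13.1% in KO MII. Aurora B mRNA never exceeded 0.684%. The log2 ratio of Aurkc to Aurka was 1.98 and 2.08 in the WT MII pools and 2.72 and 4.04 in the KO MII pools, so the KO libraries were apart from WT and also from each other.

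Among the non-catalytic subunits, Incenp (chr19:9872296-9899551, − strand) was the least abundant and the most variable, with a 9.19-fold range of spike-in scaled counts. In stage order, WT counts were 965 and 424, then 1956 and 1067, then 870 and 592. KO counts were 415 and 1462, then 1588 and 2287, then 1257 and 624. The GVBD means were the highest of each genotype. From GV to GVBD the log2 fold change was 1.03 in WT (SE 0.57, adjusted p = 1) and 0.97 in KO (SE 0.41, adjusted p = 0.637), neither of which passed. From GVBD to MII, Incenp fell in WT by 1.87 on the log2 scale (SE 0.69, adjusted p = 0.0280), the only call among the 7 genes in that comparison. The median gene fell by 1.11 there, the TMM-scaled value was −0.90 with an adjusted p of 0.13, and leaving out WT GVBD replicate 1 or 2 or WT MII replicate 2 ended the call (adjusted p of 0.721, 0.0737 and 0.357). In KO the value was −1.59 (SE 0.78, adjusted p = 0.235). Between genotypes Incenp had 0.59 at GV (SE 0.50, adjusted p = 0.59) and 0.80 at MII (SE 0.86, adjusted p = 1). Its GV to MII values were −0.83 in WT and −0.62 in KO.

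Cdca8 (chr4:124918465-124939311, − strand), the borealin gene, was the steadiest of the 7 genes next to Aurkc in spike-in scaled counts, with a 2.45-fold range. With TMM scaling Cdca8 ran from 2646 to 6112, but Aurkc ran from 10582 to 63396 and was not steady. In stage order, WT counts were 3949 and 3220, then 3168 and 2848, then 5980 and 6393. KO counts were 2970 and 4192, then 3451 and 3724, then 3111 and 3228. Spike-in scaled, the KO GV libraries, at 5348 and 5407, were just above WT GV, at 4541 and 4685. The libraries of the genotypes were apart at GV for 58.2% of 13273 genes with a mean count of at least 50. At MII WT had 3081 and 4770 and KO had 2312 and 3113, which overlapped. The GV to MII log2 fold changes were −0.23 in WT (adjusted p = 0.781) and −0.99 in KO (SE 0.56, adjusted p = 0.3), and the interaction was −0.75 (SE 0.61, adjusted p = 1). The KO minus WT difference at MII was −0.53 (SE 0.78, adjusted p = 1). Without KO MII replicate 1 the KO value was −1.22 (adjusted p = 0.00171), above the median gene of that fit at −2.09.

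Incenp overlaps a transcript of unclassified type on its own strand, and Cdca8 and Plk1 overlap genes on the opposite strand. How reads in these overlaps were assigned was not stated, so counts of these 3 genes are less certain.

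Plk1 (chr7:122159439-122169873, + strand), which encodes the polo-like kinase, had WT counts of 772 and 621, then 466 and 841, then 1771 and 1550 in stage order. KO counts were 523 and 833, then 988 and 795, then 1372 and 778. The WT MII counts were the highest pair of the 6 groups. The 2 KO MII libraries were far apart after spike-in scaling, at 1373 and 557, with WT MII at 1413 and 747. The log2 fold change from GV to MII was 0.27 in WT (adjusted p = 0.759) and −0.06 in KO (adjusted p = 0.968), and the genotype difference at MII was −0.16 (SE 0.84, adjusted p = 1). With TMM scaling Plk1 was called higher in WT MII than in WT GV, at 1.15 (adjusted p = 0.0124). With TMM scaling 25.6% of all genes were called from GVBD to MII in WT, among them 4 of the 7 genes, all higher, namely Aurka (1.60), Plk1 (1.49), Aurkc (1.45) and Cdca8 (1.19). With spike-in scaling these values were 0.73, 0.66, 0.58 and 0.21 and none was called. Their counts relative to the typical transcript rose, while their counts relative to spike-in RNA did not pass the test.

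Compared between genes per kilobase of merged exon, the spike-in scaled level was highest for Aurkc and lowest for Aurkb in all 12 libraries. Median levels over the libraries were 15110 for Aurkc, 8240 for Birc5, 3932 for Aurka, 849 for Cdca8, 407 for Plk1, 241 for Incenp and 52.4 for Aurkb. Birc5 was second in 10 libraries and gave way to Aurka in the 2 WT MII libraries. The merged exons of Birc5 span 3402 bases and include a long annotated isoform. With the length of the transcript that has the longest coding sequence, a choice made after seeing the data, Birc5 stood first in 8 libraries, and Aurkc in the 4 MII libraries.

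Of the 21 pairs of a gene and a stage, spike-in scaled KO and WT libraries were apart in 6, with KO higher in each. These were Aurkc, Cdca8 and Plk1 at GV, Aurka and Plk1 at GVBD, and Birc5 at MII. Over the 13273 genes with a mean count of at least 50, the libraries were apart for 58.2% at GV, 48.2% at GVBD and 30.7% at MII, against 3, 2 and 1 of the 7 genes, so this count is no result about them. None of the 6 was called. The median gene was also higher in KO, by 0.36, 0.23 and 0.30 on the log2 scale, and with TMM scaling it differed by at most 0.04. These medians rested on single libraries. At MII the median was −0.45 without KO MII replicate 1 and 0.03 without WT MII replicate 2, against 0.70 without KO MII replicate 2 and 0.75 without WT MII replicate 1. At GVBD it was −0.01 without WT GVBD replicate 2, 0.03 without KO GVBD replicate 1 and 0.57 without WT GVBD replicate 1, and at GV it was 0.16 without KO GV replicate 1.

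Pairwise likeness among the 7 genes was described over the same 12 libraries with TMM scaling. Aurkc and Plk1 had r = 0.87, Aurka and Plk1 0.75, Aurka and Cdca8 0.73, and Cdca8 and Plk1 0.70. Birc5 had r between −0.44, with Aurka, and 0.22, with Aurkb. With spike-in scaling Birc5 and Incenp had r = 0.68, and with TMM scaling 0.15, so that value followed the scaling.

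Other genes of the pathway were taken from lists by role. Of 9 genes that place the complex on chromosomes, none was called between genotypes at any stage, and their median KO minus WT log2 difference at MII was 0.49 against 0.30 for all genes. Of these, 2 of 9 were called from GV to MII in WT, both lower, beside 30.9% of all genes. Haspin, the kinase that phosphorylates histone H3 to recruit survivin, fell by 1.64, and Xpo1, an export receptor that binds survivin, fell by 2.48. With TMM scaling Haspin was at −0.74 and not called, Xpo1 was at −1.53 and still called, and Sgo1, the shugoshin that guards centromeric cohesin, was called higher at 1.08. From GVBD to MII in WT the same pair was called lower, by 1.88 and 2.99, beside 27.8% of all genes called. With TMM scaling Haspin was not called there, Xpo1 was still called lower and Sgo1 was called higher, beside 25.6% of all genes.

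Of 7 genes that activate Aurora A and PLK1, none was called in any comparison with spike-in scaling. Ccnb1, the cyclin B1 gene, and Tpx2 were the most abundant, with mean counts of 46580 and 17887. The median of the 6 tested from GV to MII in WT was 0.06, against −1.06 for all genes. With TMM scaling Nedd1, Cdk1 and Ccnb1 were called higher there, at 1.07, 1.14 and 1.19, beside 24.7% of all genes called.

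Of 12 substrates and effectors, Cdca5 (the sororin gene) and Tacc3 (a spindle protein phosphorylated by Aurora A) were called lower in WT. From GV to MII they had −1.58 and −2.42, beside 30.9% of all genes called. From GVBD to MII they had −1.95 and −2.69, beside 27.8%. Tacc3 was also called from GVBD to MII in KO, at −2.87, beside 7.20% of all genes. With TMM scaling Cdca5 was at −0.67 and −0.96 and not called, and Tacc3 was called in both WT comparisons but not in KO (adjusted p = 0.0515). With TMM scaling Kif23, Ect2, Fbxo43 and Bub1b were called higher from GV to MII in WT, at 1.33, 1.05, 1.21 and 1.05. In KO only Kif23 and Fbxo43 of these 12 were, at 1.31 and 1.66. The shares of all genes called with this scaling were 24.7% in WT and 5.06% in KO. The genotypes were not tested against each other for this count.

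Of 12 subunits and partners of the opposing phosphatases, 3 were called lower from GV to MII in WT, beside 30.9% of all genes. They had log2 fold changes of −1.50 for Ppp1ca, −2.79 for Ppp2ca and −2.14 for Ppp2r5d, which encode catalytic subunits of PP1 and PP2A and a B56 regulatory subunit. With TMM scaling Ppp1ca was at −0.56 and not called. Between GVBD and MII, with 27.8% of all genes called in WT and 7.20% in KO, Ppp2ca was called lower in both genotypes. Its values were −3.43 in WT and −3.57 in KO. Ppp1ca, at −1.97, and Ppp2cb, which encodes the other PP2A catalytic subunit, at −3.29, were called lower in WT. At MII all 12 had positive KO minus WT values with a median of 0.61 against 0.30 for all genes, and none was called. All 12 were positive at GV as well, with a median of 0.60 against 0.36, and 7 at GVBD, with 0.31 against 0.23. With TMM scaling the median of the 12 at MII was 0.25. The median of all genes at MII ran from −0.45 to 0.75 when 1 library was left out. The share of all genes with positive values was not counted.

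The relatives of the 7 genes were sparser. Of 4 other polo-like kinase genes, Plk4, which drives centriole duplication, had a mean count of 1902 and the others at most 41.2. Plk2 was called lower from GVBD to MII in WT, at −2.60, but not with TMM scaling (adjusted p = 0.0867), and Plk4 was called higher from GV to MII in WT with TMM scaling only, at 1.25. Of 9 other genes with a BIR domain, the domain that survivin shares with the inhibitors of apoptosis, Birc3 had the highest mean count, 13077. Birc3 was called higher from GV to MII in WT with TMM scaling only, at 1.42, beside 24.7% of all genes. Naip1 was called lower there with spike-in scaling only, by 1.43, beside 30.9% of all genes. From GVBD to MII in WT, Birc3 was again called higher with TMM scaling only, beside 25.6% of all genes. Naip1 was again called lower with spike-in scaling only, beside 27.8% of all genes. No gene of these lists was called between genotypes at GV, GVBD or MII.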

How the data were processed

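The deposited table holds whole-number counts per gene for 12 libraries and 92 ERCC RNAs. Before deposit, the authors had used cutadapt 1.9 for trimming, HISAT2 2.0.4 for alignment to GRCm38/mm10 with the ERCC sequences, SAMtools to keep uniquely mapped reads, and StringTie 1.3.4d (versions per the submitters' processing notes). The step that made whole counts, and the annotation release, are not given in the sources used here. All 12 columns were mapped to samples, and 0 were left unused. The labels' extraction protocol describes a bulk preparation and the methods a low-input one; the latter was followed. PCR reads carry no molecular identifiers, so counts are not independent molecules.

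Symbols were assigned to 52073 of 56691 gene IDs (91.9%). Counts were tested with edgeR 4.0.16 (R 4.3.3; estimateDisp, glmQLFit, glmQLFTest), with library sizes proportional to summed ERCC counts, filterByExpr on the compared groups, and Benjamini-Hochberg adjustment over all tested genes; tests were two-sided. Calls required an adjusted p under 0.05 and an absolute log2 fold change of at least 1. The SE is the fold change divided by the root of the F statistic. Alternatives were TMM and median-of-ratios scaling, ERCC RNAs with at least 10 counts, no or a stricter filter (10 counts in every library), DESeq2 1.42.0, all 12 libraries in one model, a replicate block, no fold minimum and leaving out each library. The procedure was tested on simulated data. Levels per kilobase used merged exons of GENCODE M21. Correlations used log2 of TMM-scaled counts plus 0.5. The genes and lists were chosen with earlier results of these data known. By rule, the 7 genes, Alkbh5, list genes that were called, otherwise at most 2 of highest mean count per list, and the 5 genes most like Birc5 were named. Some list genes called with TMM scaling only were also named, after their values were seen, and others were not named.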

Additional observations from a re-analysis of the deposited data

Results flagged for a closer look

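Aurka was flagged because both KO libraries lay above the WT mean at GVBD and both lay below it at MII. On log2 spike-in scaled counts the KO libraries differed from the WT mean by 1.11 and 0.62 at GVBD and by −0.20 and −1.73 at MII. The stage effects, 0.87 and −0.97, were 1.83 apart. The same values read along the stages gave 0.68 from GVBD to MII in WT and −1.15 in KO, again 1.83 apart. Cdca8 was flagged in the same way. Its KO minus WT effect was −0.51 at MII, against 0.22 at GV and 0.56 at GVBD, so that MII differed from GV by 0.74 and from GVBD by 1.07. These differences between stages were not tested, except that the GV to MII interaction of both genes had an adjusted p of 1 in edgeR's quasi-likelihood test.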

How the results depend on the processing

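The 11 counts of called genes and 44 single fold changes were recomputed under the alternatives, giving 724 values in all, and 7 of the 11 counts did not change under any of them. With TMM or median-of-ratios scaling 2 genes were called from GV to MII in WT (Aurkc and Plk1, in place of Birc5) and 4 from GVBD to MII in WT. In the latter, DESeq2 and the replicate block each gave 2 (Birc5 and Incenp, with an adjusted p of 0.00264 for Birc5 in the replicate block). Leaving out 1 library gave 0 to 1 calls in each of these WT comparisons, 0 to 3 from GV to MII in KO and 0 to 2 from GVBD to MII in KO, where the highest counts came without KO MII replicate 1, in fits that called 54.2% and 32.6% of all genes. The fits with all 12 libraries called Birc5 in place of Incenp from GVBD to MII in WT.

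The other changes were of sign, in values that were not called. From GV to MII in WT, TMM and median-of-ratios scaling gave 0.69 and 0.74 for Aurka, 0.56 and 0.60 for Aurkb and 0.69 and 0.73 for Cdca8, and median-of-ratios scaling 0.034 for Incenp. From GV to MII in KO they gave 0.76 and 0.79 for Birc5, 0.039 and 0.061 for Aurka, 0.27 and 0.29 for Incenp, 0.17 and 0.20 for Cdca8 and 0.92 and 0.95 for Plk1. For Birc5 they gave −0.024 and −0.017 between genotypes at GVBD and 0.58 and 0.61 from GVBD to MII in KO, and the replicate block gave −0.0097 from GV to GVBD in KO. These scalings move the median gene to near 0 by construction. Leaving out 1 library gave ranges that crossed 0. Between genotypes these were −0.14 to 0.13 for Birc5 and −0.21 to 1.13 for Incenp at GV, −0.034 to 0.54 for Birc5 at GVBD, and −0.95 to 0.37 for Plk1, −0.16 to 1.13 for Aurkb and −0.13 to 1.58 for Incenp at MII. From GV to MII in WT they were −0.61 to 0.13 for Aurka, −0.26 to 0.66 for Plk1, −1.08 to 0.21 for Aurkb and −0.58 to 0.048 for Cdca8. In KO they were −0.21 to 1.17 for Aurkb, −1.55 to 0.17 for Incenp and −0.85 to 0.45 for Plk1, with −0.28 to 0.26 for Birc5 from GV to GVBD, and in WT −0.14 to 0.64 for Cdca8 from GVBD to MII. The cause was not tested.

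Replicate numbers were not taken to pair the libraries in the main test. Deviations of same-numbered libraries correlated at −0.22 to 0.22 over 13273 genes in the 9 comparisons of 2 groups, and the replicate block changed no call other than that of Birc5 from GVBD to MII in WT. Crossing the numbers, where the correlation was under −0.1, gave 0 called genes of the 7 in each of the 3 comparisons.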
